A study of Mus musculus with 36 samples.

Results

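A set of 10 genes that mark inhibitory interneurons was followed through 36 mouse RNA-seq libraries: Gad1, Gad2, Slc32a1, Pvalb, Sst, Vip, Npy, Calb2, Cck and Lhx6. They were taken as a list of symbols and matched to the symbols of the deposited count table. All 10 were found among its 24940 genes, and all 10 passed the filter on low counts in the test of every comparison.

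Inhibitory interneurons are local neurons that release gamma-aminobutyric acid (GABA). The enzymes encoded by Gad1 and Gad2 make GABA from glutamate, and the transporter encoded by Slc32a1 loads it into synaptic vesicles. Interneurons fall into classes that are told apart by what else they make: the neuropeptides somatostatin (Sst), vasoactive intestinal peptide (Vip), neuropeptide Y (Npy) and cholecystokinin (Cck), or the calcium-binding proteins parvalbumin (Pvalb) and calretinin (Calb2). Lhx6 is a transcription factor of the interneurons that arise in the medial ganglionic eminence, which include the parvalbumin and somatostatin classes. Several of these genes are not limited to interneurons: the projection neurons of the striatum are themselves GABAergic, and many excitatory neurons of the cortex express Cck.

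The series measured poly(A) RNA from 3 regions of male mice, cortex, corpus callosum and striatum, and from sorted microglia. The mice were controls (CTRL) or carried MBP29-hα-syn, a human α-synuclein transgene driven in oligodendrocytes by the promoter of myelin basic protein. The line models multiple system atrophy (MSA), and its animals are called MSA mice. The bulk tissue came from mice fed, from 4 weeks of age and for 12 weeks, either AIN-76A placebo chow or chow with 1200 mg/kg PLX5622, an inhibitor of the receptor CSF1R on which microglia depend. The 4 groups had 3 libraries each in cortex. In corpus callosum the placebo control group had 3 and the others 2, and in striatum the placebo MSA group had 3 and the others 2. The 6 microglia libraries, 3 per genotype, came from 16-week-old mice and had no diet arm. The protocol calls the controls wild type, while the tags of the microglia controls call them MBP29 het and those of the MSA microglia MBP29 homo, so the microglia controls may carry the transgene.

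Depth, as assigned counts per library in units of 1e6, was 4.36 to 9.79 for cortex, 4.59 to 28.6 for corpus callosum and 5.18 to 11.3 for striatum. Which libraries come from 1 animal is not in the labels, and p-values therefore measure only the spread between libraries. The 2 control striatum PLX5622 libraries carry a no-treatment tag and were grouped by title. A list of 12 microglia genes summed to 20.6 and 14.3 counts per 1e6 assigned counts (CPM) in these libraries; on placebo it summed to 573 and 609 CPM. In 6 bulk libraries under 70% of the reads were assigned to genes, and they stood apart in several of the 10 genes, as described below. In cortex these were placebo 3 and PLX5622 1 of the control mice. In corpus callosum they were placebo 3 and PLX5622 2 of the control mice and PLX5622 1 of the MSA mice, and in striatum PLX5622 2 of the MSA mice. In bulk tissue, fewer interneurons and less RNA of a gene per interneuron cannot be told apart.

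The promoters of the 4 neuropeptide genes are shown because Sst, Vip, Npy and Cck were all lower in corpus callosum than in cortex. Each line is the 100 bases before the transcription start in RefSeq (build GRCm38.p6, whose coordinates are those of mm10), written on the strand of the gene. Capitals mark TGACG on either strand, the core of the cAMP response element, which somatostatin gene studies made well known.
Sst, chr16:23890845-23890944, minus strand: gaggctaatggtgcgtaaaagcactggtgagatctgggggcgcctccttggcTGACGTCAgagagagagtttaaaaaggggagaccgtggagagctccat
Vip, chr10:5639118-5639217, plus strand: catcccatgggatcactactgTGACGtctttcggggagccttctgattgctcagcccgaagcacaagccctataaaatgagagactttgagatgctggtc
Cck, chr9:121495695-121495794, minus strand: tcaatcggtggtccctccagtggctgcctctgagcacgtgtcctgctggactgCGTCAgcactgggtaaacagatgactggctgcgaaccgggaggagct
Npy, chr6:49822610-49822709, plus strand: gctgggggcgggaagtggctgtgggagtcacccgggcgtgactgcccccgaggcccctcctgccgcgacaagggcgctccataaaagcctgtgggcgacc

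Sst carries the full palindrome TGACGTCA, in which the motif on both strands overlaps, beginning 48 bases before the start. In Vip the motif begins 79 bases before the start, in Cck 47 bases before it and on the other strand, and these letters are not in the Npy window. Of the 10 genes 9 had an entry in the RefSeq promoter table, and 4 of them held the motif, Gad2 being the other. The motif occurs in 10.5% of all 32851 promoter windows of this length, and the palindrome in 1.15%. These are shares of windows, while the count of 4 is of genes, and a gene can have several windows. Pvalb had 2 and Lhx6 had 3, all without the motif. Lhx6 was also lower in corpus callosum than in cortex, while Gad2 did not pass there. Any part of the motif in the regional differences was not tested. A match describes the sequence and not a binding site.

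**Figure D1:**
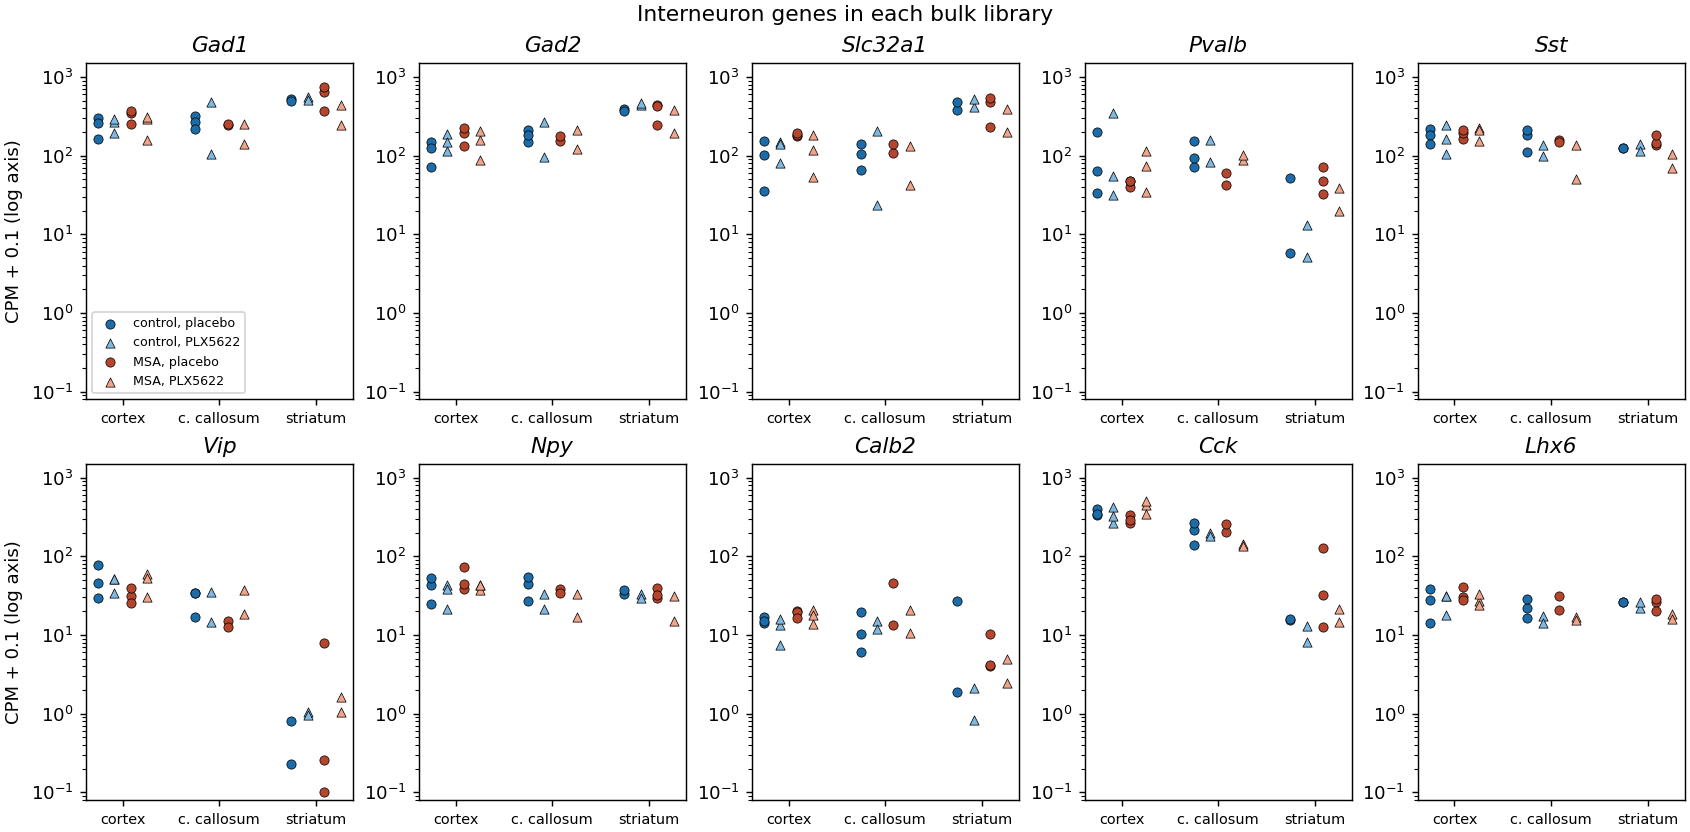
Level of each of the 10 genes in every bulk library (CPM + 0.1, log axis), by region and by genotype and diet group, with each point 1 library. Gad1, Gad2 and Slc32a1 sit highest in striatum, and Vip and Cck sit far lower there than in the other 2 regions.

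Levels were compared between genes in transcripts per 1e6 (TPM) as the authors deposited them, since these are scaled by transcript length. In cortex Cck had the highest median, 580 TPM, followed by Sst with 452 TPM; only 65 and 96 genes of the table had a higher median TPM there. Gad1 (115 TPM), Npy (105), Slc32a1 (74.0) and Pvalb (73.1) followed, then Gad2 (37.5) and Vip (37.3), and Calb2 (15.7) and Lhx6 (11.8) were lowest. Of the 9 neighbouring pairs in this order, 7 overlapped in their ranges over the 12 libraries, among them Cck, from 350 to 760 TPM, and Sst, from 194 to 563 TPM. The ranges of Sst and Gad1 (56.5 to 161 TPM) did not overlap, nor did those of Vip (23.5 to 56.3 TPM) and Calb2 (7.76 to 20.8 TPM). In corpus callosum Cck (325 TPM) and Sst (322 TPM) again led, with Pvalb (118 TPM) above Gad1 (104 TPM). In striatum the order was another: Sst led with 310 TPM, Gad1 (232 TPM) and Slc32a1 (212 TPM) followed, Cck stood at 26.1 TPM, and Vip, at 0.845 TPM, was lowest. TPM totals differed between libraries, so the tests below rest on counts.

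Sorted microglia held almost none of these transcripts. No member exceeded 0.734 CPM in any of the 6 microglia libraries. Vip, Npy and Lhx6 had no count in any of them, which allows up to 0.248 to 0.504 CPM per library.

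The 3 genes of GABA synthesis and packaging were higher in striatum than in cortex and corpus callosum. In edgeR's quasi-likelihood test on all 30 bulk libraries, with Benjamini-Hochberg adjustment over all genes, 8 of the 10 members differed between striatum and cortex, 3 higher and 5 lower, where 39.3% of all genes tested did (18.6% higher and 20.6% lower). Between striatum and corpus callosum 7 members differed, 3 higher and 4 lower, where 30.3% of all genes did (12.9% higher and 17.4% lower). Between corpus callosum and cortex 5 members differed, all lower, where 30.0% of all genes did (15.9% higher and 14.1% lower). Regional differences were thus common among all genes, and the count of 5 for corpus callosum against cortex is read against that background.

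Gad1 (chr2:70562129-70602014, plus strand, in mm10 as for all members) ranged from 158 to 371 CPM in cortex with a median of 280, from 106 to 474 CPM in corpus callosum with a median of 249, and from 242 to 749 CPM in striatum with a median of 515. Its mean was 504 ± 147 CPM in striatum (SD, n = 9) and 268 ± 66.8 CPM in cortex (SD, n = 12), a log2 difference of 0.85 ± 0.22 (SE, adjusted p = 0.00273). The ranges overlapped, since MSA striatum PLX5622 2 (242 CPM) and MSA striatum placebo 1 (368 CPM) lay within the cortical range. An antisense gene, Gad1os, overlaps Gad1 in the table and reached at most 20 counts in a library.

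Gad2 (chr2:22622327-22693877, plus strand) had medians of 148 CPM in cortex, 177 CPM in corpus callosum and 389 CPM in striatum, and its log2 difference between striatum and cortex was 1.30 ± 0.20 (SE, adjusted p = 1.12e-05). The lowest striatal library, MSA striatum PLX5622 2 with 194 CPM, lay under the highest cortical one, MSA cortex placebo 3 with 225 CPM. Slc32a1 (chr2:158610758-158615747, plus strand) had the widest separation of the 3. It ran from 35.1 to 194 CPM in cortex, from 23.5 to 203 CPM in corpus callosum and from 197 to 546 CPM in striatum, so striatum and cortex did not overlap, as was so for 7.74% of all genes. The log2 difference between striatum and cortex was 1.63 ± 0.34 (SE, adjusted p = 0.000492), a fold of 3.09. Against corpus callosum the log2 differences were 1.08 for Gad1, 1.20 for Gad2 and 2.01 for Slc32a1, with adjusted p of 0.0011, 0.000177 and 0.0003. A list of 12 genes of striatal projection neurons, the GABAergic output neurons of the striatum, moved with these 3 genes: all 12 were higher in striatum than in cortex, with a median log2 difference of 3.82. Its part in the Gad1, Gad2 and Slc32a1 differences was not tested.

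**Figure D2:**
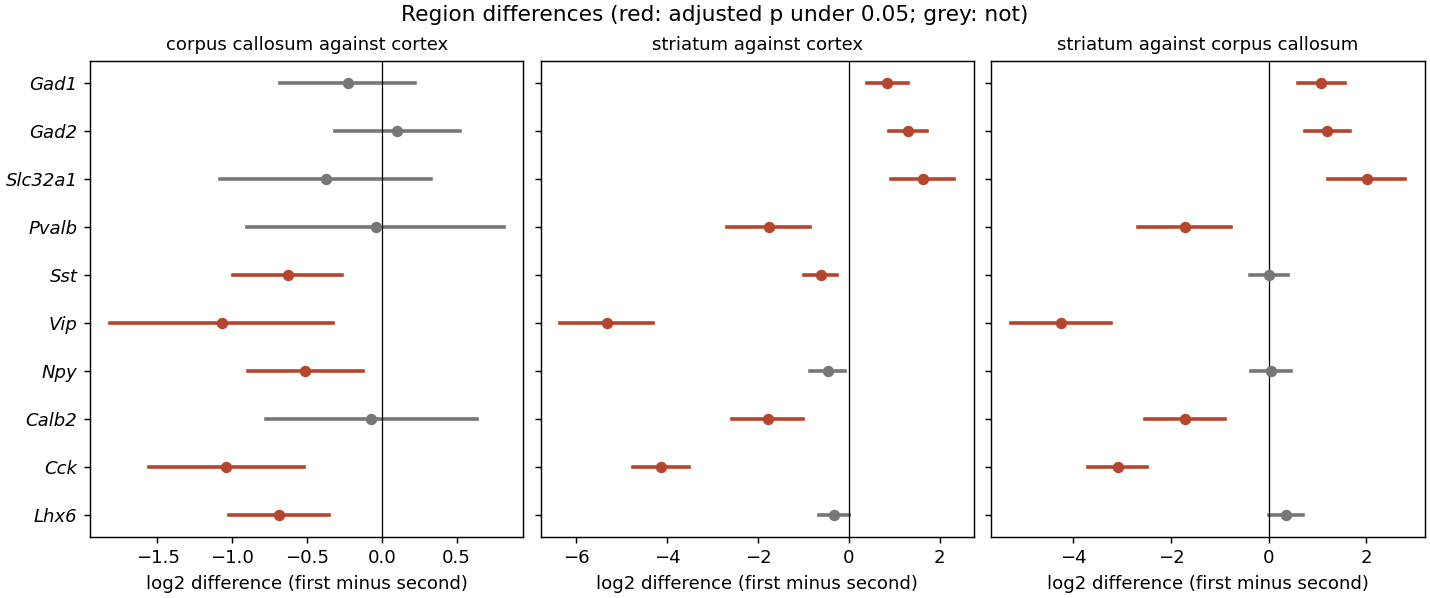
Log2 difference of each member between regions in the fit on all 30 bulk libraries, with 95% intervals; red marks adjusted p under 0.05. Vip and Cck have the largest negative differences in striatum, at -5.33 and -4.13 against cortex, while Gad1, Gad2 and Slc32a1 are positive there.

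Of the neuropeptide genes, Vip and Cck were far lower in striatum than elsewhere, while Sst and Npy were present in every bulk library of all 3 regions. Vip (chr10:5639218-5647616, plus strand) ran from 25.3 to 76.4 CPM in cortex with a median of 42.8, and from 12.4 to 36.6 CPM in corpus callosum with a median of 18.2. In striatum its values were 0.132 and 0.71 CPM in the placebo control libraries, 0.939 and 0.851 CPM in the PLX5622 control libraries, 7.8, 0.16 and 0 CPM in the placebo MSA libraries, and 1.55 and 0.95 CPM in the PLX5622 MSA libraries. The count of 0 allows up to 0.405 CPM. The 9 striatal libraries lay below all cortical and callosal ones. Vip was 40.2-fold lower in striatum than in cortex (log2 -5.33 ± 0.49 SE, adjusted p = 1.34e-08) and 19.1-fold lower than in corpus callosum (adjusted p = 7.70e-07).

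Cck (chr9:121489824-121495694, minus strand) ran from 263 to 499 CPM in cortex and from 136 to 263 CPM in corpus callosum. In striatum 8 libraries ran from 7.93 to 31.8 CPM and MSA placebo 1 reached 127 CPM, still below all cortical and callosal libraries. Cck was 17.6-fold lower in striatum than in cortex (log2 -4.13 ± 0.30 SE, adjusted p = 1.59e-10) and 2.06-fold lower in corpus callosum than in cortex (log2 -1.04 ± 0.25 SE, adjusted p = 0.00312). MSA striatum placebo 1 also had the highest Vip of the striatal libraries, 7.8 CPM. Its summed level of 13 cortical glutamatergic genes was 6354 CPM, against 4019 to 4618 CPM in the other 8, and its summed level of the striatal projection neuron genes was 10913 CPM, against 12991 to 15760 CPM. The part of these levels in its Cck and Vip was not tested.

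Sst (chr16:23889581-23890844, minus strand) was highest in cortex. Its mean was 185 ± 39.9 CPM in cortex (SD, n = 12), 138 ± 47.5 CPM in corpus callosum (SD, n = 9) and 127 ± 31.2 CPM in striatum (SD, n = 9). Cortex was higher than both other regions, with a log2 difference of -0.63 ± 0.18 for corpus callosum (SE, adjusted p = 0.00926) and -0.62 ± 0.18 for striatum (SE, adjusted p = 0.00735). Striatum and corpus callosum differed by 0.01 on the log2 scale, with a 95% interval from -0.38 to 0.40. Npy (chr6:49822710-49829505, plus strand), which many somatostatin interneurons also make, had means of 41.8 ± 12.9, 33.5 ± 11.3 and 30.9 ± 6.82 CPM in the same order. It was lower in corpus callosum than in cortex by -0.51 ± 0.19 (SE, adjusted p = 0.0401), and its difference of -0.46 ± 0.19 between striatum and cortex did not pass (adjusted p = 0.0525).

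The calcium-binding protein genes were lower in striatum. Pvalb (chr15:78191112-78204237, minus strand), the marker of fast-spiking basket cells, had medians of 51.5 CPM in cortex, 88.8 CPM in corpus callosum and 32.0 CPM in striatum, and was 3.40-fold lower in striatum than in cortex (log2 -1.77 ± 0.44 SE, adjusted p = 0.00302). Its ranges overlapped widely, from 31.8 to 349 CPM in cortex and from 5 to 71.2 CPM in striatum. Calb2 (chr8:110142538-110168206, minus strand) had medians of 16.1, 13.1 and 3.90 CPM and was 3.44-fold lower in striatum than in cortex (log2 -1.78 ± 0.38 SE, adjusted p = 0.000629). Here 1 striatal library, control placebo 1 with 27.1 CPM, was higher than all 12 cortical libraries, whose highest was 20.7 CPM. Against corpus callosum Calb2 was lower by -1.71 (adjusted p = 0.00193), but in the placebo control libraries alone, which include that library, the difference was 0.40 (adjusted p = 0.867).

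Lhx6 (chr2:36081953-36105408, minus strand) kept a narrow range. It ran from 14.2 to 40.2 CPM in cortex, from 13.9 to 30.7 CPM in corpus callosum and from 16 to 28.5 CPM in striatum. It was lower in corpus callosum than in cortex (log2 -0.69 ± 0.16 SE, adjusted p = 0.00235). Striatum differed from cortex by -0.33 ± 0.16 (SE, adjusted p = 0.101), with a low end of the 95% interval at -0.67.

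The 5 members lower in corpus callosum than in cortex were Sst, Npy, Cck, Vip and Lhx6. Gad1 (-0.23), Gad2 (0.10), Slc32a1 (-0.38), Pvalb (-0.04) and Calb2 (-0.07) did not pass, and their 95% intervals reached from -1.08 at the lowest (Slc32a1) to 0.82 at the highest (Pvalb). Markers of other cells moved with this comparison: all 12 pan-neuronal genes were lower in corpus callosum, with a median log2 difference of -0.71, and all 10 oligodendrocyte genes were higher, with a median of 2.57, while the median of the 10 members was -0.44. All 10 choroid plexus genes were also higher, and 7 of the 12 striatal projection neuron genes. The part of these cell types in the member differences was not tested.

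The calls of corpus callosum against cortex rested on small margins for Vip and Npy. Vip lost its call when control PLX5622 1, MSA placebo 1, MSA placebo 2 or MSA PLX5622 3 of corpus callosum was left out (adjusted p 0.0636 to 0.0762). Npy lost it without any 1 of 12 libraries (adjusted p 0.0544 to 0.139): in cortex control placebo 1 and 2, control PLX5622 2 and 3, MSA placebo 3 and MSA PLX5622 1 and 3, and in corpus callosum control placebo 3, control PLX5622 2, MSA placebo 1 and 2 and MSA PLX5622 1. Without control corpus callosum PLX5622 1, which had the highest Gad1, Gad2 and Slc32a1 of that region (474, 265 and 203 CPM), Gad1 (-0.62, adjusted p = 0.0139) and Slc32a1 (-0.97, adjusted p = 0.0243) passed as lower. Without the 6 libraries of low assignment, a choice made after seeing the data, the same 5 members passed. With the assigned share as a covariate Npy did not (-0.21, adjusted p = 0.213), and Gad2 passed as higher (0.39, adjusted p = 0.034). With the placebo control libraries alone, 3 against 3, no member passed. For striatum against cortex those libraries, 2 against 3, left Cck (-4.52) and Vip (-6.72) past the threshold. The shares of all genes called in these alternative fits are not given here, so their counts of members have no background.

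Striatum against cortex gained calls when single libraries were left out. Npy passed without any 1 of 9 libraries (adjusted p 0.0166 to 0.0477): cortex control placebo 3, control PLX5622 1 and MSA placebo 1, corpus callosum control PLX5622 1 and 2 and MSA PLX5622 1 and 3, and striatum MSA placebo 1 and MSA PLX5622 3. Lhx6 passed without control cortex placebo 3 (-0.41, adjusted p = 0.0214). Without the 6 libraries of low assignment, which left a group with 1 library, the difference was -0.48 for Npy and -0.49 for Lhx6.

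Within cortex and corpus callosum, most members moved with the share of reads assigned to genes. The share ran from 60.1 to 84.5% in cortex, 59.5 to 77.2% in corpus callosum and 65.5 to 76.9% in striatum. A slope on this share across the libraries of a region, fitted beside the means of the 4 genotype and diet groups, was added after seeing the data and is given as the log2 change per 10 percentage points. In cortex 8 of 10 members had a slope past the threshold in edgeR's test, 6 positive and 2 negative, where 27.7% of all genes did (13.3% positive and 14.4% negative). In corpus callosum 6 of 10 did, 5 positive and 1 negative, where 20.8% of all genes did (12.3% positive and 8.47% negative). In striatum, where 1 library was under 70%, 0.0% of all genes and no member passed. There 4 members (Gad1, Gad2, Slc32a1 and Npy) and 1824 of all genes had an unadjusted p under 0.05. Pan-neuronal genes summed to 6861 and 7273 CPM in the 2 cortical libraries under 70%, against 8456 to 10378 CPM in the other 10. Cortical glutamatergic genes summed to 4244 and 6397 CPM against 9359 to 11589 CPM. In corpus callosum the pan-neuronal sums overlapped, with 4600 to 5659 CPM under 70% and 5189 to 8079 CPM above. Their part in the member slopes was not tested.

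In cortex Pvalb went against most of the other members. It stood at 199 CPM in control placebo 3 and 349 CPM in control PLX5622 1, the 2 libraries of lowest assignment, and between 31.8 and 114 CPM in the other 10. Its slope was -1.32 ± 0.13 (SE, adjusted p = 7.80e-06), a level 2.50-fold lower for each 10 points more of assigned reads. Vip had a negative slope as well, -0.39 ± 0.13 (SE, adjusted p = 0.0325). Slc32a1 (0.76), Lhx6 (0.51), Npy (0.45), Gad2 (0.44), Sst (0.38) and Gad1 (0.37) had positive slopes, while Cck (0.09) and Calb2 (0.01) did not pass. Npy was 24.3 and 21.6 CPM and Lhx6 14.2 and 17.9 CPM in the 2 libraries of low assignment, below all 10 others, whose lowest were 37.2 and 24.1 CPM.

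In corpus callosum Slc32a1 had the steepest slope of the members, 1.55 ± 0.14 (SE, adjusted p = 5.91e-05). It ran from 23.5 to 64.8 CPM in the 3 libraries under 70% and from 104 to 203 CPM in the other 6, with no overlap. Gad1 (0.97), Gad2 (0.69), Sst (0.69) and Npy (0.63) were positive too. Sst ran from 50.1 to 112 CPM in the 3 libraries and from 136 to 212 CPM in the others. Vip alone was negative among these calls, -0.66 ± 0.16 (SE, adjusted p = 0.00922), with 34.4 to 36.6 CPM in the 3 libraries against 12.4 to 33.6 CPM. Pvalb, with 88.8 to 159 CPM against 42.9 to 102 CPM, had a slope of -0.34 that did not pass (adjusted p = 0.232).

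**Figure D3:**
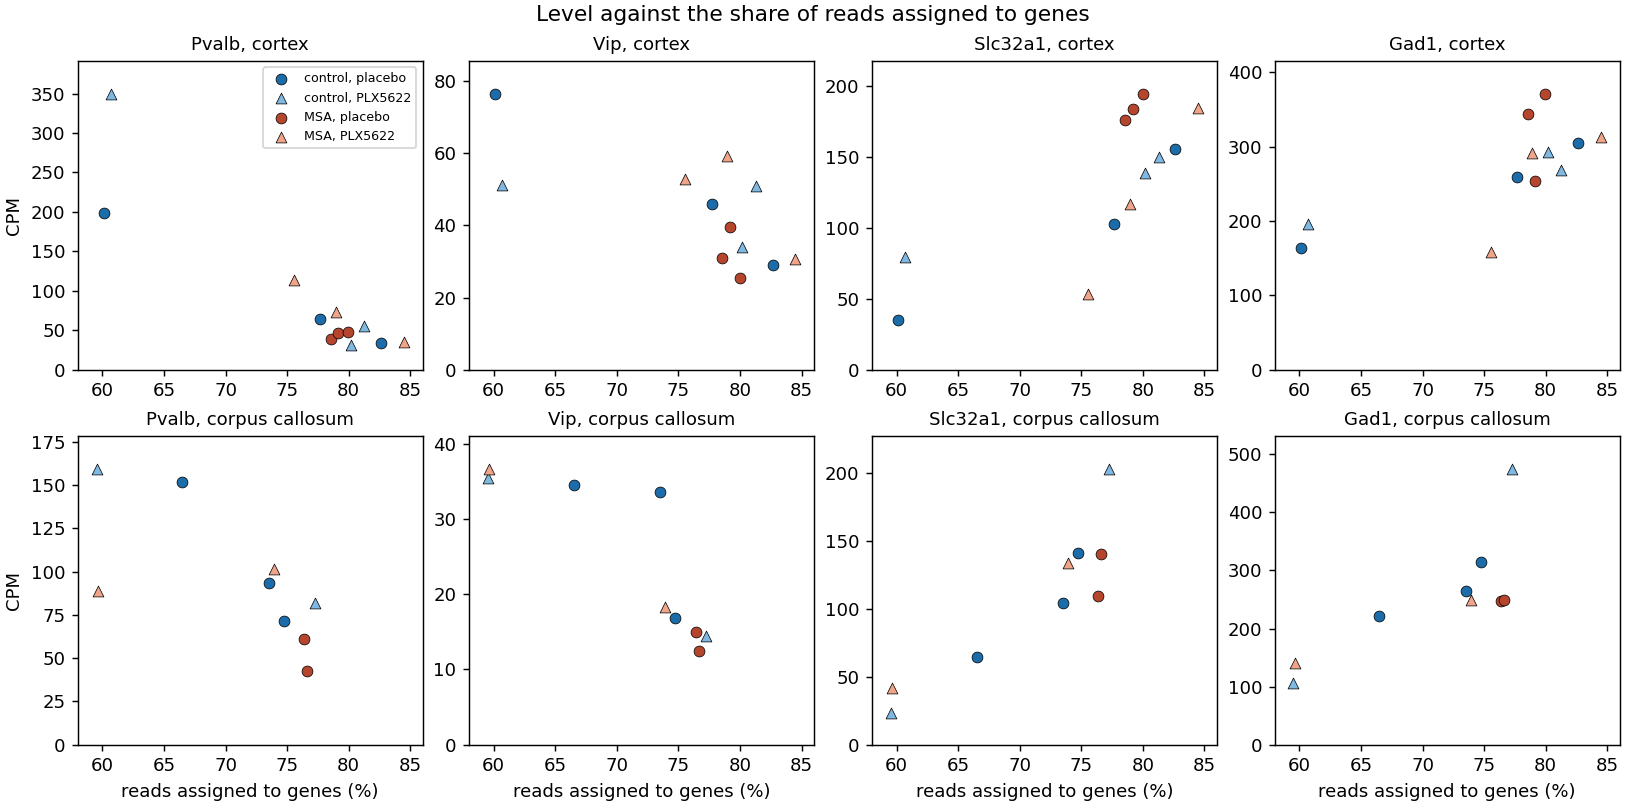
Level of Pvalb, Vip, Slc32a1 and Gad1 in each library (CPM, linear axis from 0) against the share of reads assigned to genes (percent), in cortex and corpus callosum, with each point 1 library. In cortex Pvalb is highest in the 2 libraries of lowest share, and in corpus callosum Slc32a1 is lowest in the 3 libraries under 70%.

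Individual libraries carried some of these slopes. Without control cortex placebo 3, 3 members passed in cortex: Gad1 (adjusted p = 0.155), Gad2 (0.142), Npy (0.184), Lhx6 (0.103) and Vip (0.373) no longer did. Sst lost its call without control cortex PLX5622 1 (adjusted p = 0.0558), and Vip without any 1 of 6 cortical libraries, which were control placebo 1, 2 and 3, control PLX5622 3 and MSA PLX5622 2 and 3 (adjusted p 0.0546 to 0.373). In corpus callosum Gad2 (adjusted p 0.143 to 0.146) and Vip (0.133 to 0.144) lost theirs without control PLX5622 1 or 2, and Pvalb gained one without MSA PLX5622 1 or 3 (slopes of -0.62, adjusted p 0.0126 to 0.0135). The range of calls over left-out libraries was 3 to 8 in cortex and 4 to 7 in corpus callosum.

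In edgeR's test on the libraries of each region, fitted without a replicate block, no member passed for genotype, diet or their interaction. Of 210 member tests in 21 comparisons none had an adjusted p under 0.05 in this edgeR fit, and the lowest was 0.203. With the replicate number as a block, edgeR called some members in striatum, as given in the closing section. At an unadjusted p under 0.05 there were 16, or 7.62%, while 2.25 to 13.8% of all genes were under it in the single comparisons. Calls were rare among all genes too, between 0 and 0.712% of those tested in these comparisons. DESeq2 called 2 of the 210, named below, and had 21 with an unadjusted p under 0.05. Averaged over diets, the genotype comparison called 0.137% of all genes in cortex, 0.365% in corpus callosum and 0.377% in striatum. Averaged over genotypes, the diet comparison called 0.712, 0.453 and 0.659%. The single-group comparisons, in the order diet in control mice, diet in MSA mice, genotype on placebo and genotype under PLX5622, called 0.486, 0.0548, 0 and 0.151% in cortex, 0.46, 0.0693, 0.321 and 0.195% in corpus callosum, and 0.336, 0.074, 0.0336 and 0.222% in striatum, with 514 genes at an unadjusted p under 0.05 for genotype on placebo in cortex. The interaction called 0.0959, 0.264 and 0.0874%.

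In cortex the genotype intervals of Cck, Sst, Gad1 and Gad2 spanned 0. Averaged over diets, MSA minus control was 0.01 for Cck (95% interval -0.34 to 0.36 on the log2 scale), 0.10 for Sst (-0.34 to 0.55), 0.18 for Gad1 (-0.30 to 0.66) and 0.29 for Gad2 (-0.24 to 0.83). An interval that spans 0 does not show that the genotypes were alike. The median width of the members' intervals was 1.01 in cortex, 1.37 in corpus callosum and 1.10 in striatum.

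On placebo, Slc32a1 and Cck separated the genotypes in cortex without overlap, and neither passed. These were 2 of the 10 members, where 8.67% of all genes did not overlap. For Slc32a1, control mice had 155, 103 and 35.1 CPM and MSA mice 176, 184 and 194 CPM. The means were 97.7 ± 60.3 and 185 ± 9.17 CPM (SD, n = 3 each). The log2 difference of 0.91 ± 0.50 (SE) did not pass (adjusted p = 0.828), and the lowest control value came from placebo 3, a library with 60.1% of reads assigned. Without the libraries under 70% it was 0.50. Under PLX5622 the same gene had 79.6, 150 and 139 CPM in control mice and 117, 53.1 and 185 CPM in MSA mice, which overlap. Cck on placebo had means of 357 ± 32.5 CPM in control and 296 ± 35.3 CPM in MSA mice (SD, n = 3 each), a log2 difference of -0.26 ± 0.23 (SE).

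Pvalb had the largest genotype difference of the members in cortex, -1.09 averaged over diets with a 95% interval from -2.44 to 0.25. The placebo values were 33.4, 64.2 and 199 CPM in control and 39.5, 47 and 48 CPM in MSA mice, and the PLX5622 values 31.8, 55 and 349 CPM in control and 34.6, 73.5 and 114 CPM in MSA mice. Both high control values are the 2 cortical libraries of low assignment. Without them the difference was 0.28 (95% interval -0.33 to 0.90), and with the assigned share as a covariate 0.14. It did not pass under either setting.

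Cck in MSA cortex stood at 263, 333 and 292 CPM on placebo and at 441, 499 and 345 CPM under PLX5622. The groups did not overlap, as for 14.8% of all genes, and the log2 difference of 0.47 ± 0.23 (SE) did not pass (adjusted p = 0.921). In control cortex Cck had 337, 394 and 339 CPM on placebo and 268, 417 and 324 CPM under PLX5622, a difference of -0.07 ± 0.23 (SE). The difference between these 2 diet effects was tested as the interaction and did not pass.

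In corpus callosum 6 members separated without overlap between placebo and PLX5622 in MSA mice, with 2 libraries per group. Cck had 206 and 256 CPM on placebo and 141 and 136 CPM under PLX5622 (log2 -0.85 ± 0.31 SE, adjusted p = 0.582). Lhx6 had 20.8 and 30.7 CPM against 17 and 15.2 CPM, Sst 157 and 149 CPM against 50.1 and 136 CPM, and Npy 38.4 and 33.5 CPM against 17 and 32.7 CPM. Pvalb and Vip separated the other way, Pvalb with 60.8 and 42.9 CPM on placebo against 88.8 and 102 CPM, and Vip with 15 and 12.4 CPM against 36.6 and 18.2 CPM. In Sst, Npy and Vip the library that stood farthest off, PLX5622 1, is 1 of the 3 callosal libraries under 70% assigned. In this comparison 50.1% of all genes did not overlap between the groups, so the 6 of 10 are near that background. Of all genes 0.0693% were called, and none of the 6 passed. Other cell types moved with the diet here: 5 of 10 choroid plexus genes and 2 of 12 microglia genes were lower. The choroid plexus genes summed to 3217 and 8284 CPM on placebo and to 416 and 468 CPM under PLX5622, and the pan-neuronal genes, none called, to 6355 and 6672 CPM against 4600 and 5189 CPM. Their part in the member values was not tested.

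On placebo, Pvalb and Vip did not overlap between control and MSA corpus callosum, where 35.2% of all genes did not. Control mice had 71.7, 93.7 and 152 CPM of Pvalb and MSA mice 60.8 and 42.9 CPM (log2 -1.0 ± 0.36 SE, adjusted p = 0.458). Vip had 16.9, 33.6 and 34.4 CPM in control mice and 15 and 12.4 CPM in MSA mice (log2 -1.02 ± 0.44 SE, adjusted p = 0.569). Without the libraries under 70% the differences were -0.65 for Pvalb and -0.86 for Vip, and neither passed. In the same comparison 9 of 10 choroid plexus genes were higher in MSA mice, with a median log2 difference of 3.85 and sums of 3217 and 8284 CPM against 255 to 350.4 CPM in control mice. The part of these cells in the Pvalb and Vip values was not tested. Gad1 in this region passed for diet averaged over genotypes when control PLX5622 1 was left out (-0.92, adjusted p = 0.0322), against -0.15 with it.

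In striatum all 10 members had a negative diet estimate in MSA mice, and Sst had the lowest adjusted p of all 210 tests. An unadjusted p under 0.05 was common here, at 13.8% of all genes. Sst stood at 138, 144 and 184 CPM on placebo and 69.3 and 105 CPM under PLX5622 in MSA mice, without overlap, as for 2 of the 10 members and 26.9% of all genes. The means were 155 ± 24.9 CPM (SD, n = 3) and 87.0 ± 25 CPM (SD, n = 2), a log2 difference of -0.81 ± 0.23 (SE, adjusted p = 0.203 in edgeR's test). DESeq2 gave -0.83 with an adjusted p of 0.0401. Without MSA placebo 1 the edgeR test passed for Sst (-0.89, adjusted p = 0.0446) and for Gad1 (-1.0, adjusted p = 0.0468), which had 368, 639 and 749 CPM on placebo and 242 and 441 CPM under PLX5622. The lower of the 2 PLX5622 values in both genes is MSA striatum PLX5622 2, the striatal library with 65.5% assigned. Without it the Sst difference was -0.55 (adjusted p = 0.590) and that of Gad1 -0.39 (adjusted p = 0.771). In control striatum Sst had 124 and 125 CPM on placebo and 140 and 115 CPM under PLX5622, which overlap.

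Some marker lists of other cells also had lower values under PLX5622 in MSA striatum, and others did not. The median log2 difference was -0.72 for the 10 members, -0.47 for the pan-neuronal list, -0.94 for the cortical glutamatergic list, -1.36 for the endothelial list and -2.39 for the choroid plexus list, and no gene of these lists was called. The pan-neuronal genes summed to 5977 to 6402 CPM in the 3 placebo libraries and to 3771 and 5468 CPM in the 2 PLX5622 libraries. Endothelial genes summed to 82.1 to 267 CPM on placebo and to 65.8 and 109 CPM under PLX5622, and choroid plexus genes to 68.8 to 3907 CPM and to 43.7 and 528 CPM. Cortical glutamatergic genes summed to 4090 to 6354 CPM on placebo and to 4606 and 4618 CPM under PLX5622, inside the placebo range. Astrocyte genes also stayed inside it, with 5335 to 6967 CPM against 6424 and 6808 CPM. Oligodendrocyte genes summed to 6128 to 10747 CPM on placebo and to 10572 and 11992 CPM under PLX5622. Of the microglia genes, 7 of 12 were lower. The striatal projection neuron list had a median of 0.02. The part of these cells in the member differences was not tested.

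The same PLX5622 libraries enter the genotype comparison under PLX5622 in striatum, where 9 members separated without overlap between 2 control and 2 MSA libraries and none passed. Of all genes 43.4% did not overlap there, 11% had an unadjusted p under 0.05 and 0.222% were called. Gad2 had 437 and 470 CPM in control and 194 and 376 CPM in MSA mice (log2 -0.67 ± 0.34 SE, adjusted p = 0.466). Pvalb separated upward, with 13.1 and 5 CPM in control and 39 and 19.8 CPM in MSA mice (log2 1.69 ± 0.94 SE, adjusted p = 0.504). Npy was the member that overlapped, with 32.6 and 29.7 CPM against 14.9 and 31.1 CPM.

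The diet estimate of Calb2 in control striatum rested on 1 placebo library. Control mice had 27.1 and 1.78 CPM on placebo and 0.73 and 2.02 CPM under PLX5622. The log2 difference was -3.32 with a 95% interval from -5.85 to -0.78, and -0.34 without the placebo library at 27.1 CPM. It did not pass in edgeR's test, while DESeq2 gave -3.33 with an adjusted p of 0.0453. Without control placebo 2, which leaves the library with 27.1 CPM alone on placebo, edgeR gave -4.23 (adjusted p = 0.0302), and the diet effect averaged over genotypes -2.46 (adjusted p = 0.0375), the lone library being assumed to vary like the other groups. The groups overlapped, since 1.78 CPM on placebo lies below 2.02 CPM under PLX5622.

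**Figure D4:**
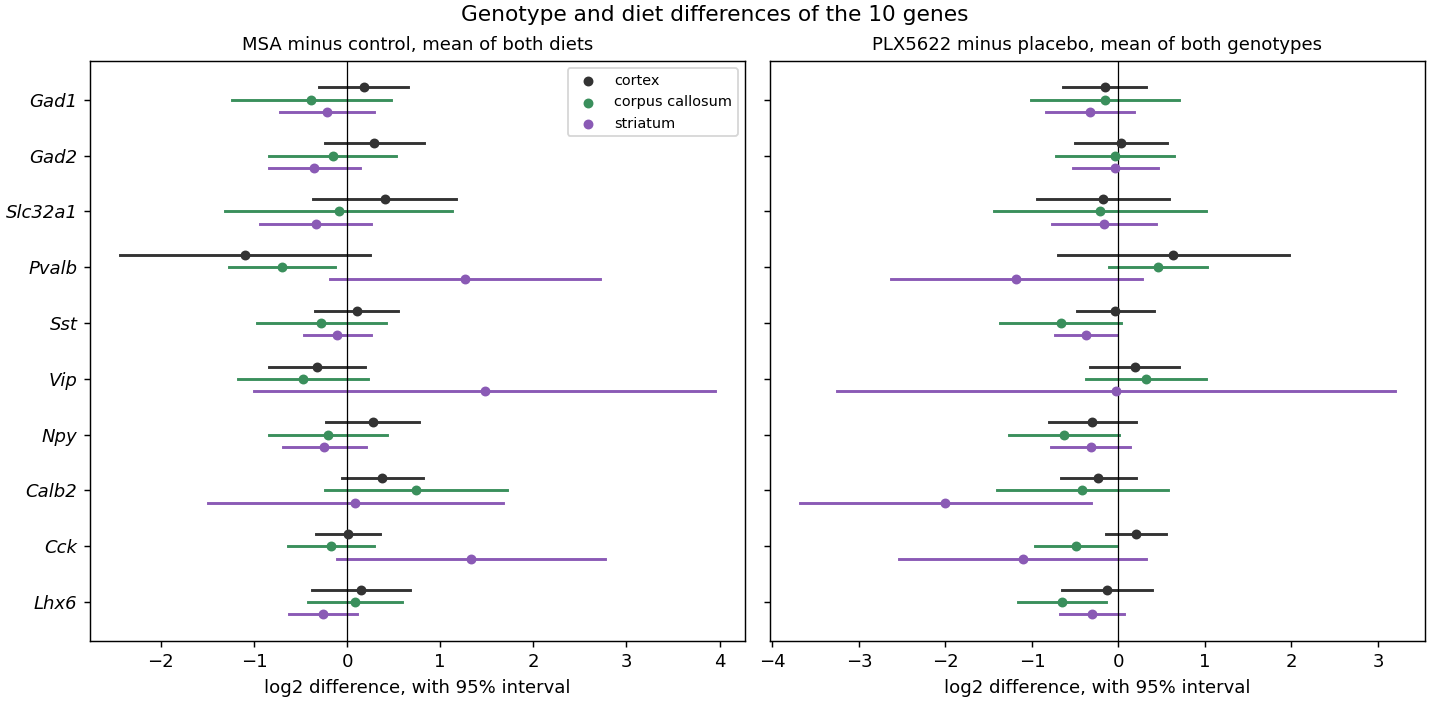
Log2 difference of each member for genotype (MSA minus control, mean of both diets) and diet (PLX5622 minus placebo, mean of both genotypes), with 95% intervals, by region. No point passed the threshold; the widest intervals are those of Vip, Calb2, Pvalb and Cck in striatum.

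Genes outside the 10 also differed between regions, as many genes did. Of all genes tested, 30.0% differed between corpus callosum and cortex, 15.9% higher and 14.1% lower in corpus callosum. Between striatum and cortex 39.3% differed, and between striatum and corpus callosum 30.3%. The counts of each list below are read against these shares, and several are near them. Of 11 other genes of GABA handling, which cover uptake, breakdown, receptors and the inhibitory synapse, 3 were lower in corpus callosum than in cortex. In striatum 2 were higher and 5 lower than in cortex, and 3 higher and 4 lower than in corpus callosum. Slc6a13, a GABA transporter, was lower in striatum than in cortex by a log2 difference of -1.83. Abat, the enzyme that breaks GABA down, was higher in striatum than in corpus callosum by 0.98 (adjusted p = 0.000502), and Gabrb2, a subunit of the GABA receptor, lower (-0.51). The synapse gene Nlgn2 was lower in corpus callosum than in cortex (-0.60), with an adjusted p of 0.0446 that was lost without any 1 of 17 libraries (adjusted p 0.0502 to 0.137).

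Of 15 other transcription factors of the interneuron lineage, 5 were higher and 7 lower in striatum than in cortex, where 39.3% of all genes differed. Dlx6, a homeobox gene of ventral forebrain neurons, was higher by 2.66 (adjusted p = 9.44e-11), while Satb1 was lower by -2.50 and Npas1 by -3.22. Against corpus callosum 5 were higher and 5 lower, again with Dlx6 (2.34), Satb1 (-2.11) and Npas1 (-2.87) at the smallest p. In corpus callosum 3 were higher and 3 lower than in cortex, where 30.0% of all genes differed. Prox1 was higher by 1.89, Maf lower by -0.96 and Nkx2-1 higher by 1.59. The list is not limited to neurons: its summed level had a median of 2059 CPM in sorted microglia and 398 CPM in cortex. Medians in microglia and cortex were 870 and 25.5 CPM for Maf and 20.3 and 12.6 CPM for Prox1. Nkx2-1 reached at most 0.245 CPM in microglia. The part of other cells in these differences was not tested. Nkx2-1 did not pass without control corpus callosum PLX5622 1 (0.98, adjusted p = 0.153).

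Of 26 other genes listed for interneuron subclasses, 6 were higher and 13 lower in striatum than in cortex, where 39.3% of all genes differed. Against corpus callosum 8 were higher and 11 lower, where 30.3% of all genes differed. The summed level of the list had a median of 3014 CPM in striatum, 1468 CPM in cortex and 1223 CPM in corpus callosum. These genes are not all limited to interneurons, and the part of striatal projection neurons in their striatal levels was not tested. Crhbp, a binding protein of corticotropin-releasing hormone made by cortical somatostatin cells, was lower in striatum than in cortex by -3.80 (adjusted p = 1.65e-11), the potassium channel gene Kcnc2 by -2.84 and the serotonin receptor gene Htr3a by -2.90. Against corpus callosum Crhbp (-2.85) and Kcnc2 (-2.56) were lower and the cannabinoid receptor gene Cnr1 was higher by 1.5. In corpus callosum 8 were lower than in cortex and none higher, led by Lamp5 (-2.02), Calb1 (-1.01) and Htr3a (-1.40). Of all genes 14.1% were lower there and 15.9% higher. All 6 genes of striatal cholinergic interneurons were higher in striatum than in both other regions. Of all genes 18.6% were higher in striatum than in cortex, and 12.9% than in corpus callosum. Chat, which makes acetylcholine, was higher than in cortex by 3.69, the choline transporter Slc5a7 by 3.52 and the vesicular glutamate transporter Slc17a8 by 2.49, and than in corpus callosum by 2.70, 2.15 and 2.48. Slc5a7 (1.37) and Lhx8 (2.25) were also higher in corpus callosum than in cortex. Over all genes tested the median was 0.00 for corpus callosum against cortex, -0.04 for striatum against cortex and -0.11 for striatum against corpus callosum. The medians of the lists for striatum against cortex were -0.54 for the members, -0.04 for GABA handling, 0.08 for the transcription factors, -0.57 for the subclass genes and 3.62 for the cholinergic genes.

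Within regions these 4 lists gave 3 calls, in 2 subclass genes, over all their genes and 21 comparisons. Of all genes, genotype averaged over diets called 0.365% in corpus callosum and 0.377% in striatum. Diet averaged over genotypes called 0.659% in striatum. So few calls from lists of this size are read against those shares, and not as a trait of the lists. Erbb4, a neuregulin receptor found on many interneurons, was lower in MSA mice. In corpus callosum it ran from 83.6 to 100.1 CPM in the 5 control libraries and from 37.9 to 52.0 CPM in the 4 MSA libraries, and averaged over diets the log2 difference was -1.02 ± 0.16 (SE, adjusted p = 0.0236). In striatum it ran from 51.6 to 62.1 CPM in the 4 control and from 28 to 35 CPM in the 5 MSA libraries, a difference of -0.91 ± 0.13 (SE, adjusted p = 0.0101). In cortex the difference was -0.96 ± 0.21 (SE) and did not pass (adjusted p = 0.195). There 5 control libraries ran from 66.0 to 102.9 CPM and the sixth, with 60.1% assigned, had 46.8 CPM, which lay within the range of the 6 MSA libraries, 33.1 to 51.8 CPM. The callosal call was lost without any 1 of 7 of its 9 libraries, all but the 2 control PLX5622 ones (adjusted p 0.0680 to 0.123), and the striatal one without control placebo 1 or 2, control PLX5622 2 or MSA PLX5622 2 or 3 (adjusted p 0.0524 to 0.0804). The estimates stayed between -1.14 and -0.91 in corpus callosum and between -0.93 and -0.85 in striatum in these fits. The striatal call was also lost with the assigned share as a covariate (-0.87, adjusted p = 0.1) and without the library of low assignment (-0.89, adjusted p = 0.0551).

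Kcnc2, which encodes a channel of fast-spiking neurons, was lower under PLX5622 in striatum averaged over genotypes (log2 -1.75 ± 0.31 SE, adjusted p = 0.0294). Its values were 27.3 and 11.8 CPM in control mice on placebo and 10.5 and 11.6 CPM under PLX5622, and 51.4, 86.4 and 34.8 CPM in MSA mice on placebo and 9.85 and 7.46 CPM under PLX5622. Placebo and PLX5622 did not overlap in either genotype, though in control mice 11.8 CPM on placebo lay close to 11.6 CPM under PLX5622. Of all genes 25.6% did not overlap in control and 26.9% in MSA mice. The call was lost without control placebo 1, control PLX5622 1 or 2 or MSA PLX5622 2 or 3 (adjusted p 0.0867 to 0.188), and with the assigned share (adjusted p = 0.175) or the pan-neuronal score (adjusted p = 0.351) as a covariate.

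The genes whose pattern over the 30 bulk libraries was most like each member were found among 12366 genes by the root mean square of the difference of log2 CPM, each gene centred on its mean. This is a description, and the libraries share region and assigned share. For Vip the nearest were Emx1 (0.75) and Gm11549 (0.83), and for Cck C1ql3 (0.41) and Slc17a7 (0.46); their own spreads were 2.53 and 1.87. Emx1 and Slc17a7 mark cortical excitatory neurons. For Slc32a1, with a spread of 1.18, the nearest were Pdyn (0.39), a gene of striatal projection neurons, and Cdh13 (0.42). Gad1 lay nearest to Acly (0.22) and Fam20c (0.22), and Gad2 to Rap1gap (0.23) and Arel1 (0.23).

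Sst lay nearest to Acot7 (0.23) and Uchl1 (0.24), Npy to Sqstm1 (0.25) and Mfsd5 (0.25), and Lhx6 to Numbl (0.21) and Prkce (0.22), with own spreads of 0.53, 0.50 and 0.45. Calb2 had Pnoc (0.72) and Klhdc8a (0.76) nearest, at a spread of 1.23. Pvalb had Tmem141 (0.62) and Cib2 (0.65) nearest, at a spread of 1.26. No member was among the 2 nearest genes of another. For Npy, however, Sst came next at rank 3, with 0.2548 against 0.2546 for Mfsd5.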

How the data were processed

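Poly(A) RNA-seq was deposited as 2 tables over 24940 genes and 36 libraries. The genome build was mm10 and the tools were STAR, HOMER and DESeq2, per the submitters' processing notes; their versions and the strand setting are not given here in any source used. Read counts are whole numbers without normalisation as the authors deposited them, a total per library in the file headers, from which the share of assigned reads was taken. The authors deposited the same genes in TPM, scaled by transcript length; these values served only to order genes by level.

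The 4 groups of a region entered 1 fit, and regions were compared on all 30 bulk libraries as the difference of the means of their 4 groups. After filterByExpr at a minimum count of 10 and TMM scaling, edgeR 4.0.16 in R 4.3.3 gave the robust quasi-likelihood F test, which is 2-sided, with Benjamini-Hochberg adjusted p under 0.05 over all genes as the threshold. A log2 difference carries the standard error (SE) of the fit and a 95% interval from its t distribution. Levels are CPM of assigned counts with SD, and limits for counts of 0 (3 counts) cover counting error only. Pairs of libraries within a group differed beyond sampling noise (chi-square over degrees of freedom 4.673 to 132.887 in 30 pairs), so none was counted as a copy. The tests were checked on simulated counts. For genotype averaged over diets, only part of the genes set to differ by 1 on the log2 scale were called. The share was 31% in cortex, 29% in corpus callosum and 56% in striatum. For a difference of 2 it was 83, 80 and 92%. Of the calls, 5.79, 7.63 and 6.33% were false.

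All 10 members are named. Of the other lists up to 3 genes per comparison past the threshold, by smallest p, are named, and for each member the 2 genes of most like pattern among those with mean log2 CPM of at least 2 (prior count 2). The members and all lists were chosen with earlier results of these data known. As alternatives, the replicate number was added as a block, DESeq2 1.42.0 or RLE scaling was used, genes of low count were kept, the assigned share or a pan-neuronal score became a covariate, fits were made on 2 groups or on placebo control mice alone, and each library was left out. Leaving out the 6 libraries under 70% assigned and the slope on the assigned share were added after seeing the data. Values of some genes on the GABA handling list are not reported here, though the list's counts include them. The share of all genes whose groups do not overlap was taken over the genes of the same fit.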

Additional observations from a re-analysis of the deposited data

How the results depend on the processing

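Of the counts of members under the alternatives, with the order of regional medians among them, 498 kept to within 1.5 times the main count and 15 did not. In the 21 comparisons of genotype, diet and their interaction the main count was 0, and there a count kept only by staying at 0. Calls were rare among all genes in those comparisons, so the tally says little about stability. In corpus callosum against cortex the count of 5 became 3 without the low-count filter and 0 with placebo control mice alone, and ran from 3 to 6 with each library left out. In striatum against cortex the count of 8 became 2 with placebo control mice alone and ran from 8 to 10 over left-out libraries, and in striatum against corpus callosum 7 members passed whichever library was left out. Calb2 in striatum against corpus callosum reversed to 0.40 with placebo control mice alone. The causes were not tested, beyond the fewer samples of these fits. The shares of all genes called in these fits are not given here. In striatum DESeq2 called 1 member for diet in control mice and 1 for diet in MSA mice.

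Whether replicate numbers pair the libraries could not be decided from the correlations of their deviations from group means. Same-numbered libraries had correlations from -0.62 to 0.51 in cortex, -0.40 to 0.29 in corpus callosum and -0.12 to 0.24 in striatum. Their medians were -0.06, -0.04 and 0.10, against 0.02, 0.02 and -0.05 for libraries of different number. In groups of 2 libraries the 2 deviations mirror each other. With the replicate block 3 members were called for diet in MSA striatum and 4 for genotype under PLX5622 in striatum. For genotype averaged over diets there, 1 was called (Slc32a1, -0.87). The share of all genes called in these block fits is not given here, so the counts have no background to be read against. The callosal call of Erbb4 was lost with the block (adjusted p = 0.161 in edgeR's test).

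Over left-out libraries the counts ran from 0 to 1 for diet averaged over genotypes in corpus callosum and in striatum, from 0 to 1 for diet in control striatum, from 0 to 2 for diet in MSA striatum, and from 3 to 8 and 4 to 7 for the slopes on the assigned share in cortex and corpus callosum. The order of the 3 regional medians was the same for 9 of 10 members with TMM library sizes. Depth limits Vip and Calb2 in striatum, where most libraries had few counts.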
